A study of Mus musculus with 6 samples.

Results

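The genes described here encode the machinery of mitosis and chromosome segregation. The set names 47 genes by their known roles, and 44 of them were read on the array through a probe set with 1 gene symbol, out of 12393 genes read in that way. Ccnb1, Cdca8 and Espl1 are not analysed here. The samples were whole lungs of male wild-type C57BL/6J mice of 8 to 10 weeks, taken at day 14. Bleomycin had been given to 3 mice at 1 mg/kg in a volume of 50 µl, and saline alone to 3 others, with 1 Affymetrix MOE430A array per mouse. Bleomycin is a chemotherapy drug that breaks DNA, and its delivery to the airways is a common model of lung fibrosis. The design text gives an oropharyngeal dose and the sample labels an intratracheal one, so the route is uncertain. The trachea and large airways were cut away before the tissue was powdered. Letters A to C name the saline arrays, D to F those of bleomycin.

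Mitosis is driven by the cyclin-dependent kinase Cdk1 with its A and B cyclins. The spindle is built by kinesins and by the Aurora and Polo-like kinases, and a checkpoint holds the chromosomes until each is attached. The anaphase-promoting complex, a ubiquitin ligase, then destroys the cyclins and securin so that sister chromatids part. Most of these genes are transcribed only in dividing cells, late in the cycle, and an adult lung at rest holds few of those.

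On saline B the levels of Xist (11.40, against 7.23 to 7.88 on the other arrays), Eif2s3y (4.05 against 7.23 to 8.02) and Kdm5d (4.58 against 6.82 to 7.62) go against its male label, so the counts of members are also given without it. All levels are log2 values, and an array has no read depth, so the number of arrays limits the precision. The gap between 3-prime and 5-prime control probe sets widens as RNA degrades. For Actb it was 1.58, 1.14 and 1.71 log2 units on saline A, B and C and 1.23, 1.27 and 1.04 on bleomycin D, E and F. For Gapdh it was 1.46, 0.88 and 1.39 on saline A, B and C and 0.81, 0.98 and 1.10 on bleomycin D, E and F. Saline A and C thus had the widest gaps, and saline B lay within the range of the bleomycin lungs. Sftpc, the surfactant gene of type 2 alveolar cells, stood at 13.98 to 14.38 on the 6 arrays, so this marker of the labelled tissue was present. In whole tissue, more cells of a type and more RNA per cell cannot be told apart.

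Many mitosis genes were higher in the lung at day 14 after bleomycin, and none passed as lower. Of the 44 measured members 19 rose and 0 fell at an adjusted p of 0.05 (limma, Benjamini-Hochberg over all probe sets), where 3.70% of all genes rose and 1.90% fell. At an unadjusted p of 0.05, 35 members were higher and 1 was lower, where 11.7% of all genes were higher and 11.0% lower. The median difference, bleomycin minus saline, was 0.68 log2 units over the members and -0.04 over all genes, and 41 of the 44 had a positive difference, as had 43.0% of all genes. Among the 19 that rose, 11 rose at least 2-fold, a size and call that 1.57% of all genes reached. For 34 members every bleomycin array lay above every saline array, against 13.3% of all genes. For 1 member, Pttg1, every bleomycin array lay below, against 14.6% of all genes.

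The count depended on which mice were included. Without saline B, 17 members rose (2.47% of all genes). The other fits with 1 array left out gave 4 without saline A (1.32% of all genes), 11 without saline C (2.15%), 15 without bleomycin D (2.41%), 18 without bleomycin E (3.11%) and 13 without bleomycin F (1.70%). The members' median difference changed less, from 0.58 without bleomycin D to 0.78 without bleomycin F, and was 0.66 without saline A and 0.74 without saline B. The calls of Ube2c, Cdk1, Mki67 and Cks2 held in all 6 of these fits. Without saline B, Cenpa, Kif23 and Prc1 were lost and Plk4 was gained, and the counts by role in the order described below were 4, 4, 2, 4, 1 and 2.

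**Figure D1:**
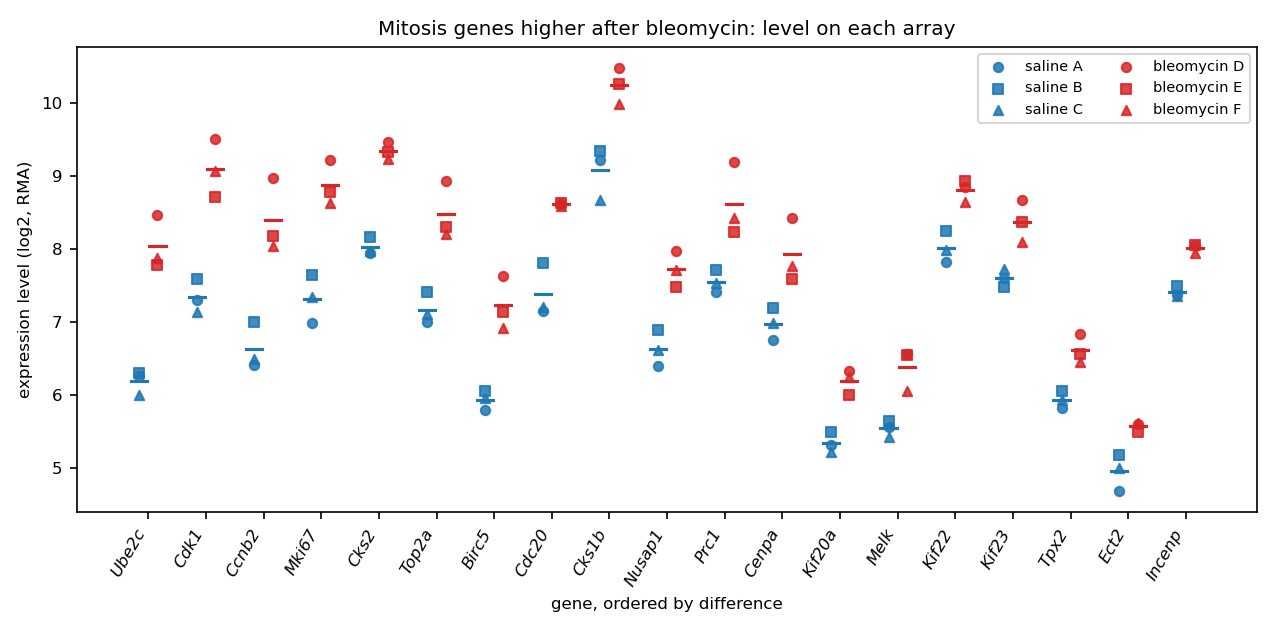
Level (log2) of each of the 19 mitosis genes called higher after bleomycin, on each of the 6 arrays, ordered by difference. Points are arrays (blue saline A to C, red bleomycin D to F) and short lines are group means (n = 3 each). In every gene shown the 3 bleomycin arrays lie above the 3 saline arrays, and bleomycin D is the highest in 15 of the 19.

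The 6 members with the largest rises were Ube2c, Cdk1, Ccnb2, Mki67, Cks2 and Top2a. Their promoters are shown because members that move together in the cell cycle are known to share short promoter elements. As background, the cell cycle homology region (TTTGAA or TTCGAA) is bound by the MuvB complexes that time transcription in the late cycle, and the CCAAT box is bound by the factor NF-Y. Each line gives the 250 bases before the RefSeq transcription start (GRCm38.p6), read toward the gene. Capitals mark matches on either strand to the cell cycle homology region, to CCAAT, and to the E2F words TTTCGCG or TTTGGCG or TTCGCGC or TTGGCGC.
Ube2c (chr2:164769679-164769928, plus strand): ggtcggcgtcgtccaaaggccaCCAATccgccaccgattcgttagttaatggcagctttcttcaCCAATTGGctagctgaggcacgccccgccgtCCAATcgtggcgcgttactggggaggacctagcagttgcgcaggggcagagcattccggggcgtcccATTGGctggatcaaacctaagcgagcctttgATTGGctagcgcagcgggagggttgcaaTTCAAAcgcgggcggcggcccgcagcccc
Cdk1 (chr10:69352913-69353162, minus strand): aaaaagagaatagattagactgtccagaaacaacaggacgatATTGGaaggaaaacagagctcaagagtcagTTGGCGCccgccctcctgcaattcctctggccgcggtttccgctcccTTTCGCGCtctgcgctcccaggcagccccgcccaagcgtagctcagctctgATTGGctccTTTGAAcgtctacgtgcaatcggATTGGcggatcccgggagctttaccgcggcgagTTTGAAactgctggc
Ccnb2 (chr9:70421555-70421804, minus strand): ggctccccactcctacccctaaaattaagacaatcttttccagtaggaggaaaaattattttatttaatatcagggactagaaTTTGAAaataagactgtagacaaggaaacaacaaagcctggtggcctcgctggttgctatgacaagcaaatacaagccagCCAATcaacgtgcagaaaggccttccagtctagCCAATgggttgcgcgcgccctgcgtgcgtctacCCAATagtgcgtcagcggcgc
Mki67 (chr7:135716380-135716629, minus strand): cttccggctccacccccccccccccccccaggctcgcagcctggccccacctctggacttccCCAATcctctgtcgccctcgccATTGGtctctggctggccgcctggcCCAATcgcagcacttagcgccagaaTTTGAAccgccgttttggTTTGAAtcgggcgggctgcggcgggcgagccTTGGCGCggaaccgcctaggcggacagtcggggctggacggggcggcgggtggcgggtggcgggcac
Cks2 (chr13:51644982-51645231, plus strand): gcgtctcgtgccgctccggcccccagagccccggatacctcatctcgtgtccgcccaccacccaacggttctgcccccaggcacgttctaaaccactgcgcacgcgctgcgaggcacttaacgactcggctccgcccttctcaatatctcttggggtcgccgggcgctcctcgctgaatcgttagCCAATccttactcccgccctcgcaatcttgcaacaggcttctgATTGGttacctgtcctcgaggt
Top2a (chr11:99024190-99024439, minus strand): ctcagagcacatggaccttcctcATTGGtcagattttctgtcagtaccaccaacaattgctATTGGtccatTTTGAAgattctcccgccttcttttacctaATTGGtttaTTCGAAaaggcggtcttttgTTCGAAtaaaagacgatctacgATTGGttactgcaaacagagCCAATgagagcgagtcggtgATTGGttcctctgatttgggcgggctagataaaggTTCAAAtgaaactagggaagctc

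Positions are counted from the transcription start, with the first transcribed base as 1 and the base before it as -1. In Ube2c a homology region word lay at -29 to -24 on the opposite strand, with CCAAT boxes at -57 to -53 and -88 to -84, also on that strand. Cdk1 held TTTGAA at -15 to -10 and at -71 to -66 and E2F words at -178 to -172 and, overlapping each other, at -131 to -124. Ccnb2 had 3 CCAAT boxes spaced evenly, starting at -87, -54 and -21, followed by TTTGAA at 5 to 10, inside the transcribed part and past the stretch shown, and another TTTGAA at -167. Mki67 had its pair of TTTGAA words further upstream, starting at -116 and -98. Top2a had homology region words starting at -179, -140, -120 and -23, and CCAAT boxes from -227 to -54. Cks2 had CCAAT boxes starting at -65, -22, 15 and 33 and no homology region word in the window.

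The same search was made in windows of 300 bases, 250 before and 50 after the start, on both strands. RefSeq windows were found for 35 of the 44 members. A homology region word was present in 26 of 35 members (74.3%), against 19.2% of all 32851 windows and 21.7% of 27025 genes. It began within 50 bases of the start in 24 members (68.6%), against 6.12% of genes. A CCAAT box was present in 27 members (77.1%, against 41.1% of genes), both words in 24 (68.6%, against 8.61%), and an E2F word in 6 (17.1%, against 6.10% of genes and 9.87% of the genes on the array). A homology region word was present in 12 of the 16 members that were called (75.0%) and in 14 of the 19 that were not (73.7%). At least 2 CCAAT boxes were present in 11 of the 16 (68.8%) and in 8 of the 19 (42.1%), against 13.3% of genes. An E2F word was present in 5 of the 16 (31.2%) and in 1 of the 19 (5.26%), against 6.10% of genes. These differences between called and uncalled members were not tested. The members without a homology region word in the window were Birc5, Cenpe, Cks2, Mad2l1, Melk, Nek2, Nusap1, Plk4 and Pttg1. Of these, Birc5, Cks2, Melk and Nusap1 rose. A match describes letters in the reference sequence and is no measurement of binding.

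**Figure D2:**
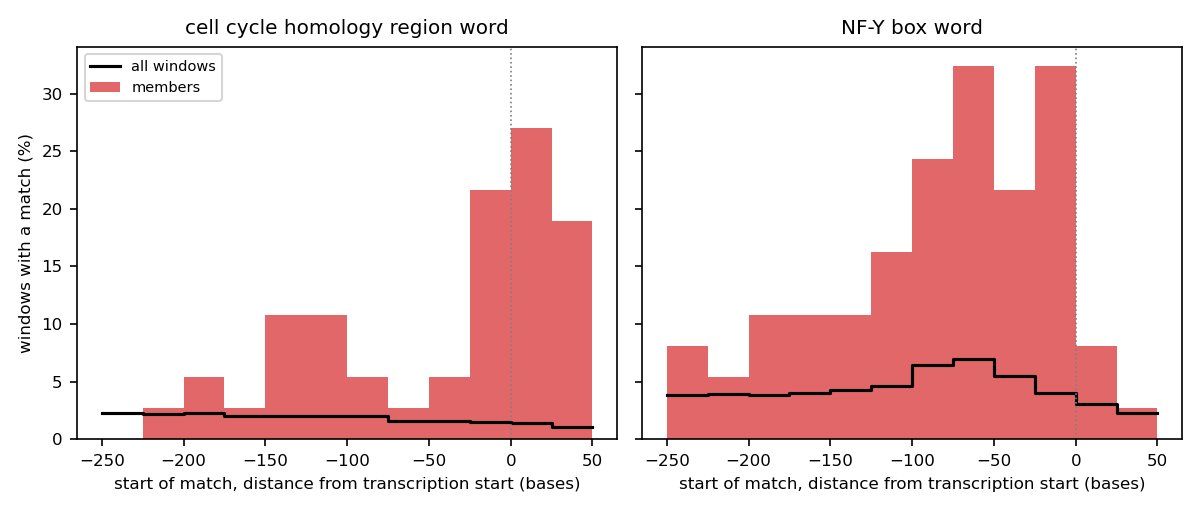
Share of promoter windows (%) with a match that starts in each 25-base bin, by distance from the transcription start (bases, 0 at the start), for the cell cycle homology region (left) and the CCAAT box (right, titled by its factor NF-Y). Bars are the 37 windows of 35 members and the black line is all 32851 windows. The homology region word is most frequent among members in the bin of the first 25 transcribed bases, in 27.0% of their windows against 1.43% of all.

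Among Cdk1, its cyclins and their partners, 4 of 8 measured members rose and 0 fell, with a median difference of 1.10 log2 units. Cdk1, the kinase that starts mitosis, had levels of 7.30, 7.60 and 7.14 on saline A, B and C and 9.52, 8.72 and 9.08 on bleomycin D, E and F. It rose 3.38-fold, by 1.76 ± 0.21 log2 units (the difference ± its standard error, as in what follows), with an adjusted p of 0.00359 in limma. Bleomycin D was highest and E lowest of the treated lungs, and all 3 lay above every saline lung. Ccnb2, which encodes the B-type cyclin B2, had levels of 6.42, 7.002 and 6.499 on saline A, B and C and 8.97, 8.18 and 8.04 on bleomycin D, E and F, and rose 3.38-fold (1.76 ± 0.25, adjusted p = 0.00912 in limma). Again bleomycin D stood above E and F, and saline B was the highest control. Cks2 and Cks1b encode small proteins that bind the cyclin-dependent kinase. Levels of Cks2 were 7.96, 8.17 and 7.98 on saline A, B and C and 9.48, 9.34 and 9.24 on bleomycin D, E and F, a 2.49-fold rise (1.32 ± 0.12, adjusted p = 0.00103 in limma). For Cks1b they were 9.23, 9.34 and 8.68 on saline A, B and C and 10.48, 10.26 and 10.00 on bleomycin D, E and F, a rise of 2.24-fold (1.16 ± 0.20, adjusted p = 0.016 in limma). The treated lungs were close together for Cks2, while saline C was low for Cks1b. In both genes the groups did not overlap.

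The other 4 genes of this role did not pass. Ccna2, which encodes cyclin A2, read 7.32, 7.59 and 7.43 on saline A, B and C and 9.11, 8.05 and 8.30 on bleomycin D, E and F, and its difference was 1.04 ± 0.25 with an adjusted p of 0.0512 in limma. The groups did not overlap, and bleomycin D stood above E and F. Ccna2 did pass without bleomycin D (adjusted p = 0.0381) and without bleomycin E (0.0294). Ccnf, the cyclin that serves as a receptor of a ubiquitin ligase, differed by 0.50 ± 0.13, and Cdc25c, a phosphatase that activates Cdk1, by 0.26 ± 0.16. Foxm1, the transcription factor known to drive many of the genes listed here, read 7.31, 7.64 and 7.65 on saline A, B and C and 7.37, 7.38 and 7.32 on bleomycin D, E and F. Its difference was -0.18 ± 0.12 (adjusted p = 0.435 in limma), and the bleomycin values lay within the range of the saline values. Without saline A, 2 of the 4 calls were lost, Ccnb2 (adjusted p = 0.0586) and Cks1b (0.0616).

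**Figure D3:**
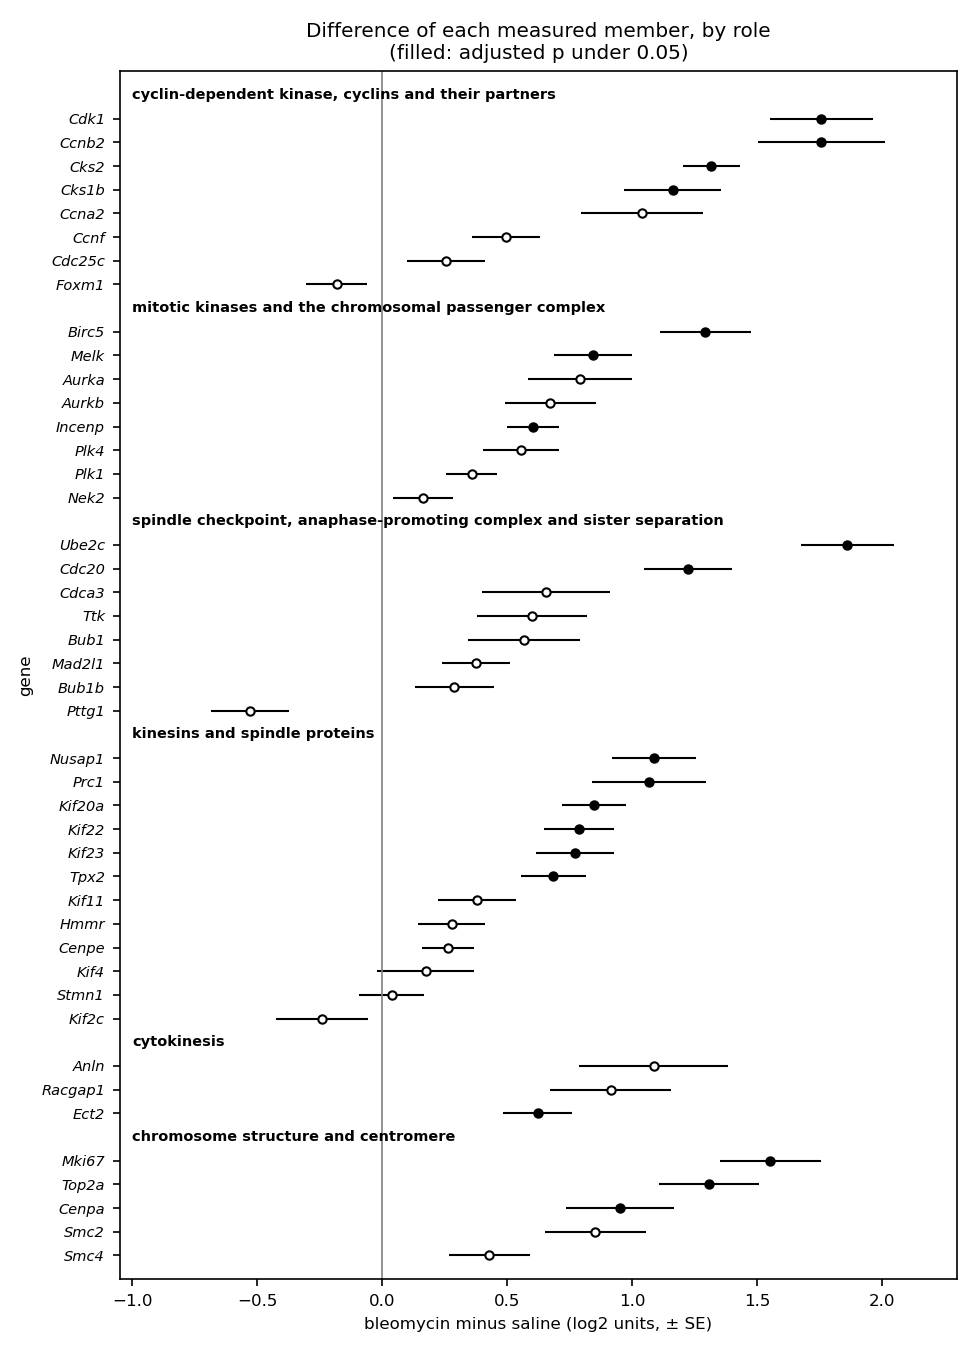
Difference of each of the 44 measured members, bleomycin minus saline (log2 units, points with standard error from limma), grouped by role. Filled points passed an adjusted p of 0.05. The differences run from -0.53 for Pttg1 to 1.86 for Ube2c, and 41 lie to the right of 0.

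Mitotic kinases and the chromosomal passenger complex, which corrects faulty attachments and guides the cleavage of the cell, had 3 of 8 members higher and 0 lower (median 0.64). Birc5, which encodes survivin of that complex, read 5.80, 6.07 and 5.97 on saline A, B and C and 7.64, 7.15 and 6.92 on bleomycin D, E and F, and rose 2.45-fold (1.29 ± 0.18, adjusted p = 0.00821 in limma). Its treated lungs ranked D, E, F from the top, all above the saline lungs. Incenp, the scaffold of the complex, read 7.38, 7.502 and 7.36 on saline A, B and C and 8.04, 8.05 and 7.95 on bleomycin D, E and F, and rose 1.52-fold (0.60 ± 0.10, adjusted p = 0.0166 in limma). Melk, a kinase of dividing and progenitor cells, had levels of 5.56, 5.66 and 5.43 on saline A, B and C and 6.57, 6.56 and 6.05 on bleomycin D, E and F and rose 1.79-fold (0.84 ± 0.16, adjusted p = 0.0234 in limma). Bleomycin F was the lowest treated lung for both, by a wider gap for Melk.

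Of the 5 kinases that did not pass, Aurka, which builds the spindle poles, and Aurkb, the kinase of the passenger complex, differed by 0.79 ± 0.21 and 0.67 ± 0.18 (adjusted p = 0.0726 and 0.0769 in limma). Plk4, which duplicates centrioles, differed by 0.56 ± 0.15, and Plk1, which acts throughout mitosis, by 0.36 ± 0.10 (adjusted p = 0.0786 and 0.0865 in limma). The groups of all 4 did not overlap. Nek2, a kinase of centrosome separation, differed by 0.16 ± 0.12 and its groups overlapped. Without saline A none of the 3 calls held (adjusted p = 0.0554 for Birc5, 0.0609 for Incenp and 0.0833 for Melk). Incenp also failed without saline C (0.061) or bleomycin F (0.0577), and Melk without saline C (0.0764), bleomycin D (0.0631) or E (0.0578). In the other direction, Plk4 passed without saline B (0.0436), and Aurka (0.0486) and Aurkb (0.0491) passed without bleomycin E.

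Genes of the exit from mitosis and of the checkpoint before it differed among themselves. Of 8 measured, 2 rose and 0 fell (median 0.58). Ube2c, the ubiquitin-conjugating enzyme of the anaphase-promoting complex, had the largest difference of all members. It read 6.27, 6.30 and 6.00 on saline A, B and C and 8.47, 7.79 and 7.89 on bleomycin D, E and F, and rose 3.63-fold (1.86 ± 0.19, adjusted p = 0.00186 in limma). Cdc20, the activator of that complex, read 7.15, 7.82 and 7.22 on saline A, B and C and 8.63, 8.63 and 8.59 on bleomycin D, E and F, and rose 2.33-fold (1.22 ± 0.17, adjusted p = 0.0088 in limma). The treated lungs were nearly level for Cdc20, whereas for Ube2c bleomycin D stood above E and F. Without saline A the adjusted p of Cdc20 was 0.0505.

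The kinases and adaptors of the spindle checkpoint did not pass. Their differences were 0.60 ± 0.22 for Ttk, the checkpoint's upstream kinase, 0.57 ± 0.22 for Bub1, 0.38 ± 0.14 for Mad2l1 and 0.29 ± 0.16 for Bub1b, with adjusted p-values in limma from 0.158 to 0.33. For Ttk the value on bleomycin D was 6.99, against 6.03 and 6.28 on E and F, and the difference was 0.32 without it. Cdca3, which aids entry into mitosis, showed the same pattern, with 7.64 on bleomycin D against 6.58 and 6.68, and a difference of 0.65 ± 0.26 that became 0.32 without D. The groups of Ttk, Mad2l1, Bub1b and Cdca3 did not overlap, with bleomycin above saline, while those of Bub1 did overlap. Pttg1 encodes securin, which holds separase inactive until anaphase. Its levels were 12.81, 12.69 and 12.95 on saline A, B and C and 11.96, 12.48 and 12.42 on bleomycin D, E and F, a difference of -0.53 ± 0.16 with an adjusted p of 0.0973 in limma. Every treated lung lay below every control, and bleomycin D, the highest lung for most members, was the lowest here. All 3 probe sets of Pttg1 had a negative difference, and the others were -0.17 and -0.44.

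Kinesins and other spindle proteins had 6 of 12 members higher and 0 lower (median 0.53). Nusap1, which stabilises spindle microtubules, read 6.40, 6.90 and 6.62 on saline A, B and C and 7.98, 7.49 and 7.72 on bleomycin D, E and F, and rose 2.13-fold (1.09 ± 0.17, adjusted p = 0.0117 in limma). Prc1, which bundles the microtubules of the midzone, read 7.42, 7.71 and 7.54 on saline A, B and C and 9.20, 8.24 and 8.43 on bleomycin D, E and F, and rose 2.1-fold (1.07 ± 0.23, adjusted p = 0.0378 in limma). Bleomycin D was again the highest for both. Kif20a, a motor of cytokinesis, read 5.32, 5.49 and 5.23 on saline A, B and C and 6.33, 6.00 and 6.26 on bleomycin D, E and F and rose 1.8-fold. The chromosome-bound motor Kif22 read 7.83, 8.25 and 8.00 on saline A, B and C and 8.86, 8.93 and 8.64 on bleomycin D, E and F and rose 1.73-fold. Bleomycin E was the lowest treated lung for Kif20a and the highest for Kif22. Kif23, the motor of the centralspindlin complex, read 7.61, 7.48 and 7.74 on saline A, B and C and 8.67, 8.37 and 8.10 on bleomycin D, E and F and rose 1.71-fold. Tpx2, which activates Aurora A on the spindle, read 5.82, 6.05 and 5.94 on saline A, B and C and 6.84, 6.57 and 6.46 on bleomycin D, E and F and rose 1.61-fold. Their differences were 0.85 ± 0.13, 0.79 ± 0.14, 0.77 ± 0.16 and 0.68 ± 0.13. The adjusted p-values of these 4 ranged from 0.0112 to 0.0316 in limma, and no treated lung of theirs reached down to a control.

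The other 6 spindle genes did not pass. Differences were 0.38 ± 0.16 for Kif11, the motor that separates spindle poles, 0.28 ± 0.13 for Hmmr, 0.26 ± 0.10 for the kinetochore motor Cenpe and 0.18 ± 0.19 for the chromosome motor Kif4. Stmn1, which encodes the microtubule destabiliser stathmin, differed by 0.04 ± 0.13, or -0.014 after centring on ribosomal protein genes and -0.051 after quantile normalization, and the microtubule-depolymerising motor Kif2c by -0.24 ± 0.19. Of the 6, only Cenpe had groups that did not overlap. Without saline A none of the 6 calls of this role held, with adjusted p-values of 0.0577 for Nusap1, 0.116 for Prc1, 0.0574 for Kif20a, 0.0694 for Kif22, 0.0963 for Kif23 and 0.088 for Tpx2. Without saline B, Prc1 (0.0669) and Kif23 (0.083) were lost, and without saline C, Prc1 (0.103), Kif22 (0.0631), Kif23 (0.0634) and Tpx2 (0.0751). Without bleomycin D, Kif22 (0.0515), Kif23 (0.0634) and Tpx2 (0.0573) were lost, as they were without E (0.0515, 0.0655 and 0.0514). Without bleomycin F, Prc1 (0.078), Kif20a (0.0514) and Tpx2 (0.0513) were lost.

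Of the 3 genes of cytokinesis, the final cut between daughter cells, 1 rose (median 0.91). Ect2, the exchange factor that activates RhoA at the cleavage site, read 4.69, 5.18 and 5.004 on saline A, B and C and 5.61, 5.51 and 5.63 on bleomycin D, E and F, and rose 1.54-fold (0.62 ± 0.14, adjusted p = 0.0432 in limma). Its treated lungs were close together and its saline lungs were spread more widely. Racgap1, the partner of Kif23 in centralspindlin, and the contractile ring scaffold Anln had larger differences, 0.91 ± 0.24 and 1.09 ± 0.30, with adjusted p-values of 0.0719 and 0.0789 in limma. Both had non-overlapping groups with bleomycin D far above E and F, at 8.56 against 7.64 and 7.96 for Racgap1 and 8.32 against 7.37 and 7.36 for Anln. The call of Ect2 was lost without saline A (0.0897), saline C (0.102), bleomycin D (0.105), E (0.0736) or F (0.133), while Racgap1 passed without bleomycin E (0.0417).

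Among 5 genes of chromosome structure and the centromere, 3 rose and 0 fell (median 0.95). Mki67, whose protein Ki-67 coats mitotic chromosomes and is the usual stain for dividing cells, read 6.99, 7.65 and 7.35 on saline A, B and C and 9.22, 8.78 and 8.63 on bleomycin D, E and F. It rose 2.93-fold (1.55 ± 0.20, adjusted p = 0.00593 in limma). Top2a, the topoisomerase that untangles sister chromatids, read 7.003, 7.42 and 7.11 on saline A, B and C and 8.93, 8.31 and 8.21 on bleomycin D, E and F, and rose 2.47-fold (1.31 ± 0.20, adjusted p = 0.0115 in limma). In both genes the treated lungs ranked D, E, F from the top and saline A was the lowest control. Cenpa, the histone variant of the centromere, read 6.75, 7.19 and 6.99 on saline A, B and C and 8.42, 7.60 and 7.77 on bleomycin D, E and F, and rose 1.93-fold (0.95 ± 0.22, adjusted p = 0.0448 in limma). The condensin subunits Smc2 and Smc4, which compact chromosomes, differed by 0.85 ± 0.20 and 0.43 ± 0.16 (adjusted p = 0.0512 and 0.174 in limma), with no overlap of the groups. Smc2 passed without bleomycin D (adjusted p = 0.0417). Cenpa failed without saline A (0.127), B (0.0645) or C (0.112) and without bleomycin D (0.0607) or F (0.0934), and Top2a failed without saline A (0.0636).

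The lungs of a group were not alike. Taken over the 44 members, the median distance from the saline mean was 0.95 log2 units on bleomycin D, 0.52 on E and 0.55 on F. Bleomycin D was the highest treated lung in 32 members, E in 8 and F in 4, while over all genes D was the highest in 41.0%. Within the saline group, A was the lowest in 30 of 44 members (40.9% of all genes) and B the highest in 30 (34.7% of all genes). The median distance from the saline mean was -0.14 on saline A, 0.14 on B and -0.0049 on C. Among the 19 called members, the difference was smaller without bleomycin D in all 19, and 9 remained at least 2-fold without it. Of these 19, 4 had a larger difference without saline A. That removal lost 15 calls.

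Several probe sets of one gene did not always give the same answer. The 44 members had 82 probe sets with 1 symbol, of which 24 rose and 0 fell, against 3.29% of all probe sets that rose, and 69 had a positive difference. Of the 23 members with several probe sets, 10 were called, and only Cks2 had all of its probe sets called. Ccna2 and Kif11 were called by another of their probe sets and not by the one with the highest mean, with differences of 1.11 and 0.55. The differences of Kif2c ran from -0.24 to 0.45 over 4 probe sets and those of Foxm1 from -0.18 to 0.15 over 4. For Top2a the other probe set differed by 0.10 and for Nusap1 by -0.04. Other probe sets differed by -0.13 and 0.12 for Kif23 and by -0.07 and -0.11 for Cdca3. For Bub1 the other was -0.08 and for Stmn1 -0.12. With the mean of all probe sets of a gene, Kif23 (adjusted p = 0.142 in limma) and Incenp (0.0885) did not pass. With the probe set of largest spread, Tpx2 (0.0714), Cks1b (0.0804) and Incenp (0.148) did not, and Ect2 missed the threshold after centring on ribosomal protein genes (0.0502). Probe sets named _s_at or _x_at can bind related transcripts, and 10 members, 5 of them called, were read through one (Aurkb, Cdc20, Cks2, Hmmr, Incenp, Kif22, Plk4, Prc1, Pttg1 and Stmn1).

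**Figure D4:**
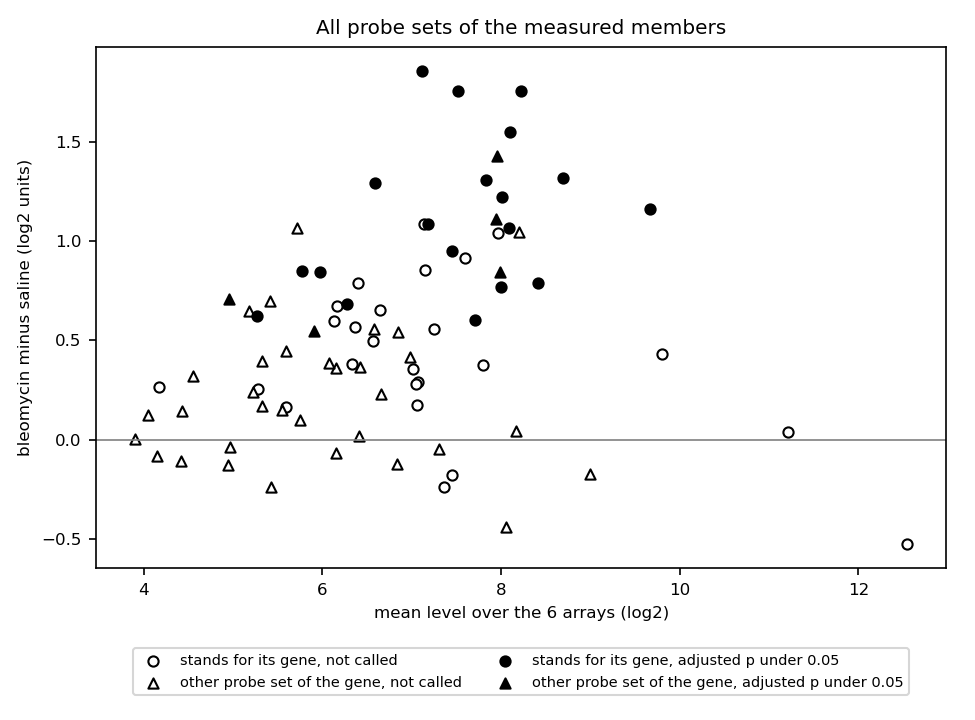
Each of the 82 probe sets of the 44 members, with its mean level over the 6 arrays (log2) on the horizontal axis and its difference, bleomycin minus saline (log2 units), on the vertical axis. Circles stand for their gene and triangles are other probe sets of the same genes, and filled symbols passed an adjusted p of 0.05. The 24 filled symbols all lie above 0, and the lowest open circle is Pttg1 at -0.53.

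Other genes of the cell cycle were read from lists chosen by function. Over all genes, 3.70% rose and 1.90% fell, and 11.7% were higher and 11.0% lower at an unadjusted p of 0.05. Of 27 measured kinetochore genes outside the members, 4 rose and 0 fell in limma (8 and 0 at an unadjusted p of 0.05), with a median of 0.17. They were Cenpf, 2.37-fold (6.87 ± 0.16 to 8.11 ± 0.36, SD, n = 3 each), the Ndc80 complex subunits Spc25, 2.1-fold (7.23 ± 0.18 to 8.30 ± 0.12, SD, n = 3 each), and Nuf2, 1.84-fold, and the centromere protein Cenpk, 1.77-fold. Of 15 genes of the anaphase-promoting complex and its partners (Fzr1 and Ube2s), 0 rose and 0 fell in limma, with a median of 0.14. At an unadjusted p of 0.05, 2 were higher (13.3%) and 1 lower (6.67%). The largest difference was that of the subunit Anapc15, 0.68 ± 0.17 (adjusted p = 0.0626 in limma). Of 15 further cohesin and condensin genes 2 rose and 0 fell (3 and 3 at an unadjusted p of 0.05), with a median of -0.16. These were Cdca5, which encodes sororin, the protector of cohesin, 2.21-fold, and the condensin II subunit Ncapg2, 1.4-fold. Without saline A the kinetochore count was 1, with Spc25 left. The cohesin and condensin count was 0 without saline A or C and 1, Cdca5, in each of the other fits with 1 array left out, and Ncapg2 passed in none of the 6.

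Genes that govern earlier steps were read from a pair of lists. Of 24 G1 and S cyclins, kinases and E2F factors 1 rose, the E2F partner Tfdp1, 1.53-fold (adjusted p = 0.0433 in limma), and 0 fell (8 and 1 at an unadjusted p of 0.05). That is 4.17% higher, where 3.70% of all genes rose. The 8 higher at an unadjusted p of 0.05 were 33.3% of the list, against 11.7% of all genes. In 5 of the 24 (20.8%, against 13.3% of all genes) every bleomycin array lay above every saline array. In 1 every bleomycin array lay below, against 14.6% of all genes. The call of Tfdp1 was lost in each fit with 1 array left out, with adjusted p-values from 0.0587 to 0.109. Of 42 DNA replication genes 3 rose (7.14%) and 0 fell, with a median of 0.27. At an unadjusted p of 0.05, 17 were higher (40.5%, against 11.7% of all genes) and 0 lower. In 19 of the 42 (45.2%, against 13.3% of all genes) every bleomycin array lay above every saline array. Those that rose were Rrm2, a subunit of the enzyme that makes deoxynucleotides, 2.53-fold (7.09 ± 0.04 to 8.42 ± 0.40, SD, n = 3 each), and the clamp loader subunits Rfc4, 1.49-fold, and Rfc3, 1.45-fold. That count was 0 without saline A, 2 without saline B, 1 without saline C, 1 without bleomycin D, 2 without E and 1 without F. Rfc4 passed in none of these 6 fits, Rfc3 only without bleomycin E and Rrm2 in all but that without saline A, and the other call without saline B was Mcm5, a subunit of the replicative helicase. The median differences of 0.68 for the members and 0.27 for the replication genes are given side by side, and their difference was not tested.

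Inhibitors of the cell cycle were read from a further list. Of 19 measured, 3 rose (15.8%, against 3.70% of all genes) and 1 fell (against 1.90% of all genes), with a median of 0.12. At an unadjusted p of 0.05, 8 were higher (42.1%, against 11.7% of all genes) and 2 lower (10.5%, against 11.0%). Cdkn1a, which encodes the kinase inhibitor p21, read 9.40, 9.56 and 10.02 on saline A, B and C and 11.57, 11.66 and 11.61 on bleomycin D, E and F. It rose 3.87-fold (1.95 ± 0.16, adjusted p = 0.000842 in limma), and the treated lungs were close together. The p53 target Ccng1 rose 2.46-fold (8.77 ± 0.08 to 10.07 ± 0.11, SD, n = 3 each) and Sfn, which encodes 14-3-3 sigma, a brake on entry into mitosis, rose 2.27-fold (6.89 ± 0.10 to 8.07 ± 0.20, SD, n = 3 each). For these 3 the calls held in all 6 fits with 1 array left out, and bleomycin D was not the highest treated lung. Cdkn1c, which encodes the inhibitor p57, fell by 0.57 log2 units (adjusted p = 0.0371 in limma). In the fits with 1 array left out it passed only without saline C, and the highest of its other adjusted p-values was 0.0983. Cdkn1b had the most negative difference of the list, -0.79 ± 0.30, and did not pass (adjusted p = 0.171 in limma). Every treated lung lay below every control for Cdkn1b and Cdkn1c, 2 of the 19 genes, against 14.6% of all genes. In 8 of the 19 (42.1%, against 13.3% of all genes) every treated lung lay above every control. For Cdkn1b, bleomycin D was at 7.70 against 8.93 and 8.90 on E and F.

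**Figure D5:**
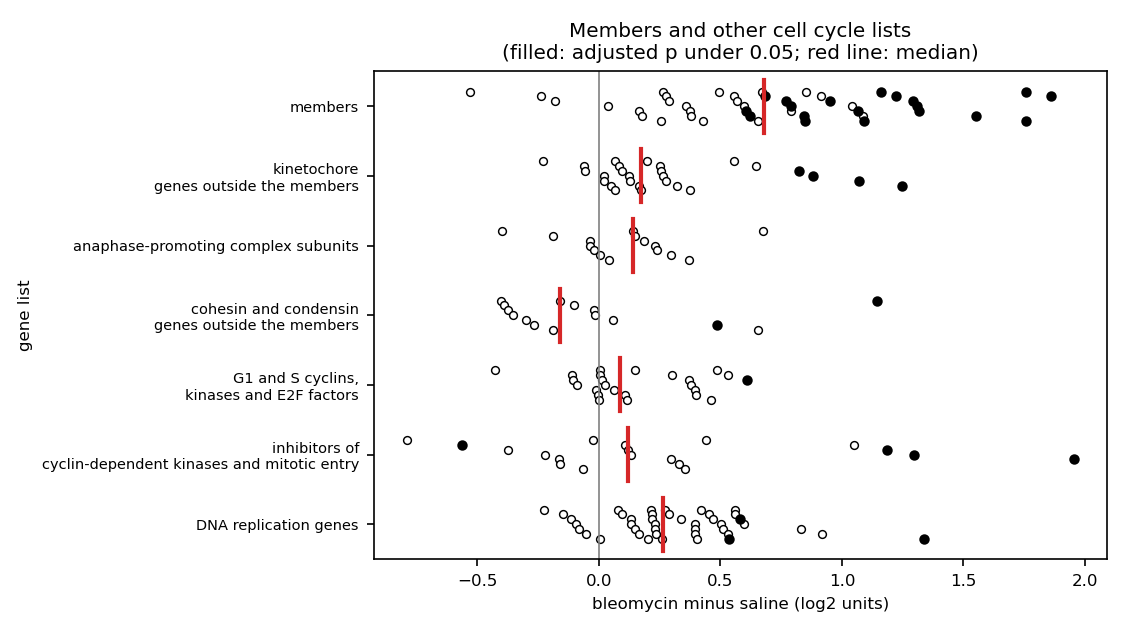
Differences, bleomycin minus saline (log2 units), of the 44 members and of the genes of 6 other cell cycle lists. Each point is a gene, filled points passed an adjusted p of 0.05, and the red line is the median of the list. The medians are 0.68 for the members and between -0.16 and 0.27 for the other lists.

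Markers of several cell types moved beside the mitosis genes. Of 15 macrophage markers 14 rose and 0 fell (median 1.74). They were led by Mmp12, the macrophage elastase, 37.4-fold, the complement genes C1qb, 10.7-fold, and C1qc, 6.7-fold, and Gpnmb, 8.6-fold. Whether the signal came from recruited or resident macrophages was not tested. The summed linear signal of the 15 was 9217 to 11670 on the saline arrays and 28480 to 29330 on the bleomycin arrays, with D at 29330, E at 28480 and F at 28560. Of 10 fibroblast markers, 4 rose, all of them matrix genes (Col1a1, Col1a2, Col3a1 and Lum), and Tcf21 fell. Differences were positive for 6 and negative for 4, with a median of 0.34 (5 higher and 2 lower at an unadjusted p of 0.05). The summed signal of the 10 was 14490 to 18870 in saline and 21230 to 29290 in bleomycin lungs. That sum includes the matrix genes that rose, and none was taken without them. Of 11 T cell markers 0 rose and 0 fell in limma (1 and 0 at an unadjusted p of 0.05), as for 8 neutrophil markers (0 and 0) and 6 of erythroid precursors (0 and 0). Their largest differences were 0.59 ± 0.15 for Thy1, which the fibroblast list also holds, -0.35 ± 0.58 for S100a9 and -0.18 ± 0.14 for Slc4a1. Among 9 markers of B and plasma cells, the antibody joining chain Jchain rose 5.16-fold and 0 fell, while 6 of the 9 had a negative difference and the median was -0.22 (1 higher and 2 lower at an unadjusted p of 0.05). Their summed signal was 10180 to 11030 in saline and 13000 to 14690 in bleomycin lungs, and without Jchain 9536 to 10100 and 8871 to 10630. Of 10 endothelial markers 0 rose and 2 fell, Ramp2 and Kdr, by 0.87 and 0.86 log2 units, with a median of -0.37. At an unadjusted p of 0.05, 0 were higher and 4 lower (40.0%, against 11.0% of all genes). Differences were negative for 8 of the 10. In 4 every bleomycin array lay below every saline array, against 14.6% of all genes. Of 9 markers of type 2 alveolar cells 0 rose and 0 fell (0 and 2 at an unadjusted p of 0.05), with the largest difference, -0.60 ± 0.18, for Lpcat1. Of 7 markers of airway cells 0 rose and 1 fell, Cyp2f2, with a median of -0.19. At an unadjusted p of 0.05, 0 were higher and 3 lower (42.9%, against 11.0% of all genes). Differences were negative for all 7. In 4 of them every bleomycin array lay below every saline array, against 14.6% of all genes.

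Summed signals of the lists in which no marker rose were 1877 to 2493 in saline and 2280 to 2469 in bleomycin lungs for T cells, and 2771 to 4840 and 2553 to 7072 for neutrophils. They were 803.4 to 995.1 and 793.2 to 905.0 for erythroid precursors, 21400 to 25180 and 16420 to 17460 for endothelial cells, 81790 to 84610 and 64890 to 82910 for type 2 cells, and 45050 to 51990 and 36590 to 43230 for airway cells. An array gives no value of 0, so no marker can be said to be absent. The part of any of these cells in the rise of the mitosis genes was not tested. The macrophage count was 12 to 14 in the fits with 1 array left out. The fibroblast rises numbered 1 without saline A, 2 without saline B, 3 without saline C, 3 without bleomycin D and 0 without bleomycin F. Tcf21 passed only without saline C. The endothelial falls numbered 0 without saline A, 3 without saline B and 1 without bleomycin F, and the airway falls 0 in every such fit but that without bleomycin E, where there were 2.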

How the data were processed

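RNA of whole lung from 6 mice was hybridised to Affymetrix MOE430A arrays, 1 per mouse. The authors deposited log2 expression values made by robust multi-array averaging (RMA) with quantile normalization, as stated per the labels of the series and by the submitters' processing notes. The columns' sorted values differed by up to 0.27, so they were not identical in distribution. The version of the software is not given in the sources used here. Of 22690 probe sets 64 controls were left out. Genes were named through the platform annotation, updated by Entrez ID with RefSeq (GRCm38.p6), where 20380 probe sets had 1 symbol, 691 several and 1555 none, and 20351 matched. Each gene was read by its probe set of highest mean.

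Bleomycin (n = 3) and saline (n = 3) were compared with limma 3.58.1 in R 4.3.3 (lmFit and eBayes), with Benjamini-Hochberg adjustment over 22626 probe sets and a threshold of 0.05. Each p-value sets the group difference against the spread between arrays of a group, moderated over all probe sets. With 1 array per mouse, that spread holds both mouse and array variation. Tested on simulated data of 22626 probe sets for this comparison, the fit recovered 74 of 100 changes of 1 log2 unit and 99 of 100 of 2 log2 units, with 4 false calls among 22426. The simulated probe sets were independent and normally distributed, with arrays of equal quality and spreads drawn from the limma prior. The real arrays had weights from 0.50 (bleomycin D) to 2.37 (bleomycin F), so these figures need not hold for them. The members and gene lists were chosen with earlier results of these data known. By rule, every member is accounted for, members that passed are given on every array, and up to 4 called genes with the largest absolute difference are named from each other list, or the 1 largest where none was called. Tcf21, Mcm5, Cdkn1b and the array values of Cdkn1a, Ccna2, Foxm1, Pttg1, Ttk, Cdca3, Racgap1 and Anln fall outside it and were chosen after their values were seen. Alternatives were other normalizations, probe set rules, filters, variance models and the omission of each array. Promoters came from RefSeq (GRCm38.p6).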

Additional observations from a re-analysis of the deposited data

How the results depend on the processing

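No member passed as lower under any alternative run, and the members' median difference stayed between 0.56 and 0.85 log2 units. The count of members higher was 7 at an adjusted p of 0.01, 11 with a 2-fold minimum added, and 4 to 18 with 1 array left out, the lowest without saline A. Under the other normalizations, filters, probe set rules and variance models it was 16 to 21 (19 as reported), with 16 of 29 and 18 of 38 members tested under the 2 filters on dim probe sets. Signs changed for genes near 0. Kif2c became 0.088 with the mean of its probe sets, and Foxm1 0.15 with the probe set of largest spread. Stmn1 became -0.014 after ribosomal centring, -0.051 after quantile normalization, -0.042 with the mean of its probe sets and -0.12 with the probe set of largest spread. With 1 array left out Kif4 ranged from -0.048 to 0.31, Stmn1 from -0.049 to 0.14 and S100a9, a neutrophil marker (-0.35 as reported), from -1.03 to 0.24, and S100a9 was 0.059 with array weights. For these genes the cause was not tested. Ribosomal centring moved the median of all genes by -0.05 and quantile normalization by -0.02. No paired analysis was possible because the letters A to F each name 1 array and pair none. The 3 arrays per group limit what could be detected.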
